A study of Mus musculus with 18 samples.

Results

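The genes described here encode 10 transcription factors that govern the formation and identity of adipocytes, namely Pparg, Rxra, Cebpa, Cebpb, Cebpd, Klf4, Klf9, Klf15, Ebf1 and Zfp423. They were chosen by name, and each of the 10 symbols matched a single row among the 54347 genes of the count table. The measurements are RNA-seq of wt1-SAM cells, which are immortalised brown preadipocytes of the mouse with a stably expressed CRISPR activation system (SAM), here differentiated into brown adipocytes. The cells were reverse transfected on day 4 of differentiation with 1.4 µl of a 10 µM locked nucleic acid antisense oligonucleotide (LNA) per 500000 cells and harvested on day 7. The LNA was either the non-targeting ctrlA or LNA1 or LNA2, both directed against the long noncoding RNA Gm15551. Cells of each LNA were either left unstimulated or stimulated for 24 h with 1 µM isoproterenol, an agonist of β-adrenergic receptors, which gave 6 groups of 3 libraries with the replicate numbers 2, 3 and 4. All groups shared the induction with 1 µM dexamethasone, 500 µM IBMX, 850 nM insulin, 1 nM T3 and 125 µM indomethacine, and 0.5 µM rosiglitazone, a synthetic ligand of PPARG. All libraries came from the same cell line, and the labels do not say whether the replicates were separate cultures, so that p-values measure the spread between these libraries, which may be technical.

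As background, adipogenesis runs through a cascade of transcription factors. CEBPB and CEBPD are induced early, CEBPB by cAMP signals and CEBPD by glucocorticoids, and both activate the genes of PPARG and CEBPA, which then maintain each other and switch on the genes of lipid storage. PPARG binds DNA as a heterodimer with RXRA. KLF4 acts on the Cebpb promoter early on, KLF9 and KLF15 act later and favour Pparg expression, EBF1 promotes the same step, and ZFP423 marks committed preadipocytes and restrains the thermogenic programme. β-adrenergic receptors raise cAMP, and cAMP in turn drives thermogenic genes such as Ucp1, the uncoupling protein of brown adipocytes.

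The LNAs are shown first because they define the groups. They are written 5′ to 3′:
ctrlA: aacacgtctatacgc
LNA1: gatgactgagattaga
LNA2: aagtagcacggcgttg
LNA1 and LNA2 were each complementary to a spliced Gm15551 transcript of the GENCODE M21 annotation over all 16 bases. Against the spliced transcripts of the 10 transcription factor genes, the longest complementary run was 8 bases for LNA1 and 8 for LNA2, and 7 for the 15 bases of ctrlA. For LNA2 such a run of 8 bases occurred in Cebpa, Cebpd, Klf15, Zfp423 and Klf9, and at least as long a run was held by 21.8% of the 14936 tested genes with a transcript in the annotation. For LNA1 it occurred in Ebf1, with 40.5% of genes holding a run of this length or more.

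The bases before the transcription start are shown for Cebpb and Klf4, since both rose with isoproterenol in the fit with the replicate block described below. The sequences are those of RefSeq on GRCm38.p6, 250 bases each, 5′ to 3′ in the direction of transcription. Capitals mark TGACG or its reverse complement CGTCA, the half-site of the cAMP response element TGACGTCA. Cebpb is shown from chr2:167688665-167688914 on the plus strand and Klf4 from chr4:55532476-55532725 on the minus strand:
Cebpb: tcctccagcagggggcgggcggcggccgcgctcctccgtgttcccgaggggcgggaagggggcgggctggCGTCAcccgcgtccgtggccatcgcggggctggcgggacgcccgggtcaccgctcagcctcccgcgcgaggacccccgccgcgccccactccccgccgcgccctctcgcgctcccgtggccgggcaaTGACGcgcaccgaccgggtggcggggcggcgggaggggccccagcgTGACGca
Klf4: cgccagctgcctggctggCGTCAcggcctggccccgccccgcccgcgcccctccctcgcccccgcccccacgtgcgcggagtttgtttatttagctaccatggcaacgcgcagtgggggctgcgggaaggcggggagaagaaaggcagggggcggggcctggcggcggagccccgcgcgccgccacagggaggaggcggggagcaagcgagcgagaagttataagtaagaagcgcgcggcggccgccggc
The Cebpb window held 3 half-sites, which began at positions -180, -53 and -7 relative to the start, and the Klf4 window held 1, at -232. Of the 10 genes, 9 matched, with 14 windows in all, and Cebpd did not. The half-site occurred in 4 of the 14 windows, those of Cebpb, Klf4, Klf15 and Klf9, compared with 17.8% of all 32851 windows of this length. Of these genes, Klf15 and Klf9 were not called with isoproterenol in the fit with the block on all libraries. The full element TGACGTCA was found in 0 of the 14 and in 1.5% of all windows. TTGCNNAA, a form of the site bound by C/EBP proteins, was found in 2 of the 14, of Pparg and Zfp423, and in 9.6% of all windows, and AGGTCA, the half-site of nuclear receptors, in 4 of the 14, of Pparg, Rxra and Zfp423, and in 14.0% of all windows. Both strands were searched, and a full cAMP response element holds the half-site on each strand. A match describes the letters of these windows and not the binding of a factor.

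Library totals lay between 9167560 and 19723021 counts, and between 21550 and 23949 genes had a count in a library. The 6 libraries numbered 2 stood apart from the others. Reads of 1 ribosomal RNA gene (CT010467.1) made up 2.88 to 14.3% of the counts there, compared with 0.285 to 1.04% in replicates 3 and 4, and mitochondrial genes took 7.86 to 9.79% compared with 2.56 to 4.97%. Gm15551 itself was nearly absent from the counts, with 2 to 14 counts in each ctrlA library (42 in all), 1 to 12 in each LNA1 library (24) and 1 to 13 in each LNA2 library (27), so that these counts are too few to check the knockdown. Replicate 2 held the highest Gm15551 count of 4 of the 6 groups. The summed level of 7 mature adipocyte markers was 18727 to 29143 CPM (counts scaled to the TMM-normalised size of the library) in unstimulated and 15494 to 22254 CPM in stimulated libraries. Fabp4 held the largest part of this sum, at means of 13639 CPM unstimulated and 9989 CPM stimulated. Of 6 brown adipocyte markers, 3 of the 5 tested rose with isoproterenol (Ucp1, Cidea and Ppargc1a) beside 4.58% of all genes, and 4 with the replicate block described below, Elovl3 being the fourth, beside 26.4%. Prdm16, also tested, was not called, with log2 fold changes of -0.19 without and -0.24 with the block. Ucp1 was at a mean of 1.12 CPM unstimulated and 12.9 CPM stimulated. Dio2 had a count in 9 of the 18 libraries, with at most 4 counts, and was not tested. In bulk RNA, a larger number of cells of a type and more RNA per cell cannot be told apart.

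All 10 genes were detected in every library, with counts from 119 for Klf4 to 10554 for Cebpa, and all 10 passed the filter on low counts. Per kilobase of exon, the C/EBP genes Cebpb and Cebpa led with mean levels of 280.4 (113 to 447) and 215 (135 to 284) CPM per kb over the 18 libraries, at ranks 149 and 216 of 14936 tested genes. The nuclear receptor genes followed, Pparg at 52.4 (39.3 to 69.5) and its partner Rxra at 29.9 (20.2 to 43.4) CPM per kb, together with Klf9 at 29.4 (21.1 to 37.6). The lower levels were those of Ebf1 at 10.3 (8.02 to 13.1), Klf15 at 9.75 (7.16 to 13.2) and Cebpd at 7.86 (4.60 to 15.5) CPM per kb. Zfp423 at 5.46 (1.63 to 9.08) and Klf4 at 5.27 (3.31 to 7.06) CPM per kb were the lowest. Neighbours in this order overlapped in range, apart from Cebpa and Pparg and from Klf9 and Ebf1, between which every library was separated.

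On GRCm38 with GENCODE M21, all 10 are protein-coding genes and lie as follows. Pparg spans chr6:115360951-115490399, Rxra chr2:27676440-27762957, Klf15 chr6:90462576-90475238, Klf9 chr19:23141226-23168134 and Ebf1 chr11:44617317-45008091, all on the plus strand. Zfp423 (chr8:87661810-87959595) and Klf4 (chr4:55527143-55532466) lie on the minus strand. The C/EBP genes consist of a single exon each on the plus strand, Cebpa at chr7:35119293-35121928, Cebpb at chr2:167688915-167690418 and Cebpd at chr16:15887286-15891031. Their exons overlap genes of the opposite strand, by 51 bases with Gm45091 for Cebpa, by 312 with Tmem189 for Cebpb and by 562 with Spidr for Cebpd. Since strand use in counting was not stated, reads of these stretches cannot be told apart. The isoproterenol log2 fold changes of the neighbours were 0.13 for Tmem189 (adjusted p = 0.746, and 0.0109 with the replicate block), -0.05 for Spidr (0.949 and 0.378) and -0.46 for Gm45091 (0.45 and 0.166).

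**Figure D1:**
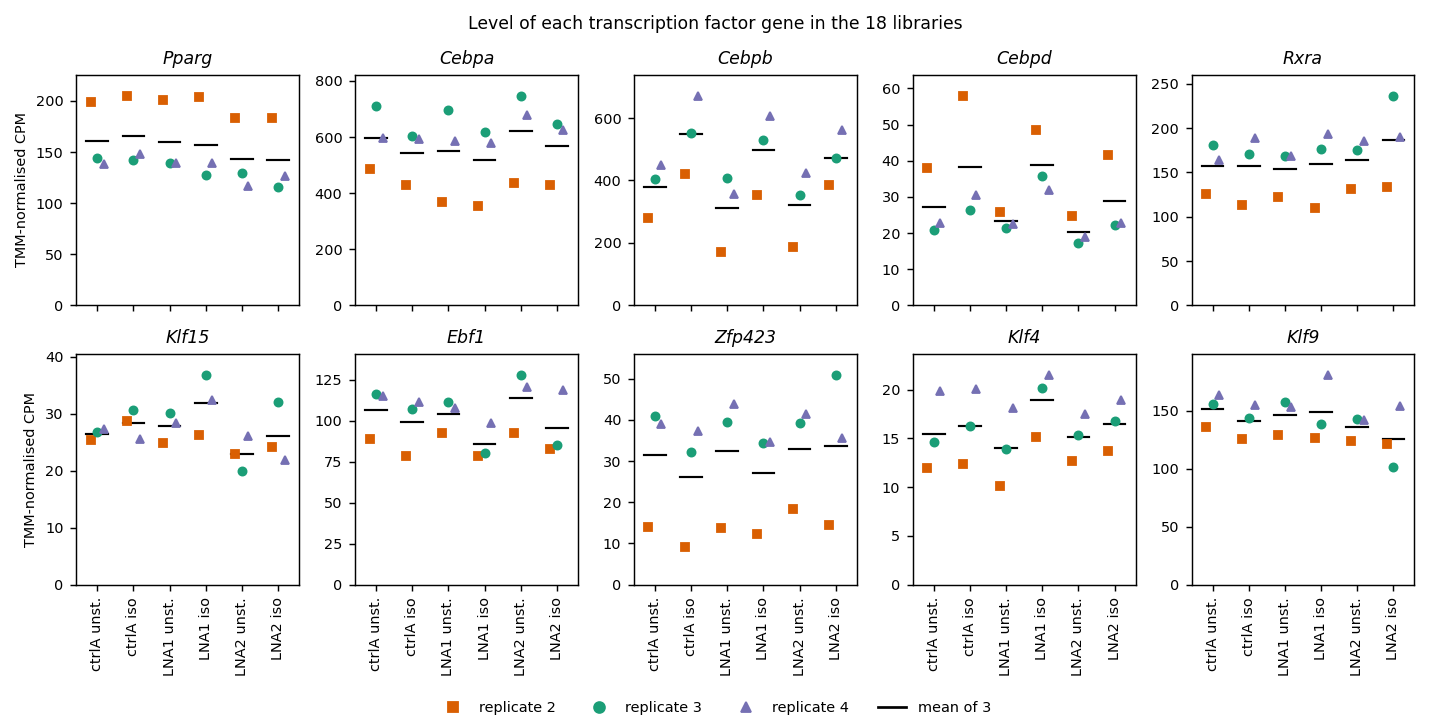
Level of each transcription factor gene in TMM-normalised CPM on a linear axis from 0, for the 6 groups of LNA and stimulation (unst., unstimulated; iso, isoproterenol), with a marker for each replicate number and a bar for the mean of 3 libraries. Replicate 2 lies apart for Pparg, Cebpa, Rxra and Zfp423, whereas Cebpb and Cebpd are higher with isoproterenol in every LNA.

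The replicate number set the libraries apart for several of these genes. For 4 of the 10 genes the 6 libraries of replicate 2 did not overlap the 12 of replicates 3 and 4, and the same held for 34.5% of all tested genes. Pparg had a median of 200.4 CPM in replicate 2 (183 to 205) and 139 CPM in the others (116 to 149). Cebpa ran the other way, with 428 CPM in replicate 2 (355 to 486) and 620.4 CPM in the others (579 to 748). Rxra had 124 CPM in replicate 2 (110.4 to 134) and 179 CPM in the others (164 to 237), and Zfp423 had 13.9 CPM in replicate 2 (9.12 to 18.3) and 39.2 CPM in the others (32.2 to 50.9), a ratio of 0.355. Thus in replicate 2 Pparg was high and the other three were low. Cebpd was at 39.8 CPM in replicate 2 (24.6 to 58.1) and 22.6 CPM in the others (17.2 to 35.8), with overlap, and the ratios of the remaining members were between 0.689 for Cebpb and 0.901 for Klf15. The summed mature adipocyte markers were at 18837 to 29143 CPM in replicate 2 and at 15494 to 22368 CPM in the others. The part of these markers and of the ribosomal and mitochondrial shares given above in these differences was not tested. Results are therefore given without and with the replicate number as a block, and without the libraries of replicate 2.

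To ask which factors respond to β-adrenergic stimulation, the 9 stimulated libraries were compared with the 9 unstimulated ones, averaged over the LNAs. Without the block, 0 of the 10 genes were called at an adjusted p below 0.05 by edgeR's quasi-likelihood test, compared with 4.58% of the 14949 genes tested, while 2 had an unadjusted p below 0.05 (15.0% of all genes) and DESeq2 called 1 (7.12% of all genes). With the replicate block 4 of the 10 were called, and 26.4% of all genes (by DESeq2 also 4, beside 25.6%). Cebpb, Cebpd and Klf4 rose and Ebf1 fell. Without replicate 2, 2 of the 10 were called beside 10.9% of all genes, and with the block in addition again 2 beside 13.1%, Cebpb and Cebpd in both cases. The median log2 fold change of the 10 genes was 0.04 without the block, and that of all tested genes -0.002.

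Cebpb and Cebpd, the early C/EBP factors, gave the highest fold changes among the 10. In ctrlA cells Cebpb was at 279.6, 406 and 451 CPM unstimulated and at 422, 551 and 672 CPM with isoproterenol (replicates 2, 3 and 4 in this order). With LNA1 the values were 169.9, 409 and 356 CPM unstimulated and 355, 529.9 and 607 CPM stimulated. With LNA2 they were 187, 352 and 425 CPM and 384, 470.5 and 563 CPM. Every stimulated library was above the unstimulated library with the same LNA and number, while the ranges over all LNAs overlapped. The log2 fold change was 0.59 ± 0.201 (SE), with an adjusted p of 0.129. With the block it was 0.62 ± 0.079, a 1.54-fold rise (adjusted p = 1.88e-05), and without replicate 2 it was 0.49 ± 0.087 (adjusted p = 0.00412). In the 9 pairs of libraries with the same LNA and number, the log2 ratio ran from 0.37 to 1.06.

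In ctrlA cells Cebpd was at 38.0, 20.9 and 22.7 CPM unstimulated and at 58.1, 26.5 and 30.6 CPM with isoproterenol (replicates 2, 3 and 4 in this order). With LNA1 the values were 25.7, 21.4 and 22.5 CPM unstimulated and 48.6, 35.8 and 32.0 CPM stimulated. With LNA2 they were 24.6, 17.2 and 18.8 CPM and 41.7, 22.2 and 22.8 CPM. Cebpd was likewise higher in each stimulated library than in its unstimulated partner, and replicate 2 held the highest value of each group. The log2 fold change was 0.58 ± 0.187 (adjusted p = 0.102), and 0.56 ± 0.078 with the block (adjusted p = 5.05e-05). Without replicate 2 it was 0.44 ± 0.067 (adjusted p = 0.00176). Without the unstimulated ctrlA library of replicate 2 alone, Cebpd was called also without the block, at an adjusted p of 0.0463, 1 of 10 beside 3.95% of all genes in that fit. The pair ratios ran from 0.27 to 0.92 on the log2 scale. It was thus called in both fits without replicate 2 and in the fit with the block. In contrast, Cebpa, which maintains the differentiated state, ranged from 355 to 748 CPM and had a log2 fold change of -0.12 ± 0.165 (adjusted p = 0.878, and 0.0873 with the block). It was lower in all 9 pairs, with log2 ratios of -0.23 to -0.01. Without the unstimulated ctrlA library of replicate 4, Cebpa was called with the block, beside 22.7% of all genes. Within the C/EBP genes, Cebpb and Cebpd were thus higher and Cebpa lower in each pair.

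Of the Krüppel-like factors, Klf4 rose with the block. In ctrlA cells Klf4 was at 11.9, 14.6 and 19.9 CPM unstimulated and at 12.4, 16.3 and 20.1 CPM with isoproterenol (replicates 2, 3 and 4 in this order). With LNA1 the values were 10.1, 13.9 and 18.1 CPM unstimulated and 15.2, 20.2 and 21.5 CPM stimulated. With LNA2 they were 12.6, 15.3 and 17.5 CPM and 13.7, 16.8 and 18.9 CPM. Each stimulated library was above its partner, in the ctrlA replicate 4 pair by 0.02 on the log2 scale and in the LNA1 replicate 2 pair by 0.59. The log2 fold change was 0.21 ± 0.146 (adjusted p = 0.627) and 0.21 ± 0.052 with the block (adjusted p = 0.00611). Without replicate 2 it was not called, at an adjusted p of 0.325 without and 0.0974 with the block. Its log2 fold change lay between 0.15 and 0.28 in all 26 alternatives of processing. Klf15, a regulator of glucose transporter and amino acid genes, ranged from 20.0 to 36.8 CPM and had a log2 fold change of 0.16 ± 0.096 (adjusted p = 0.535), with 7 of 9 pairs higher. Klf15 was called with the block in the fit without the stimulated LNA2 library of replicate 4, beside 29.1% of all genes. Klf9, a glucocorticoid-responsive factor, ranged from 101 to 181 CPM and gave -0.07 ± 0.101 (adjusted p = 0.900), with 7 of 9 pairs lower. The highest and the lowest pair of Klf15 (0.68 and -0.25) and the lowest of Klf9 (-0.50) were LNA2 pairs, the first and the last of them of replicate 3.

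Ebf1, which acts upstream of Pparg and Cebpa, was the gene that fell with the block. In ctrlA cells Ebf1 was at 88.7, 116 and 115 CPM unstimulated and at 78.2, 107 and 112 CPM with isoproterenol (replicates 2, 3 and 4 in this order). With LNA1 the values were 92.3, 112 and 108 CPM unstimulated and 78.7, 80.2 and 98.5 CPM stimulated. With LNA2 they were 92.3, 128 and 121 CPM and 82.8, 85.0 and 119 CPM. Each stimulated library was below its partner, and the LNA1 and LNA2 libraries of replicate 3 showed the widest log2 ratios, -0.47 and -0.59. The log2 fold change was -0.21 ± 0.111 (adjusted p = 0.426) and -0.21 ± 0.058 with the block (adjusted p = 0.0113). Without replicate 2 the values were -0.23 and an adjusted p of 0.140, or 0.0960 with the block. Zfp423 was lower in 8 of 9 pairs, with a log2 fold change of -0.16 ± 0.356 (adjusted p = 0.945). The block brought its SE to 0.079 and its adjusted p to 0.0874. The exception was the stimulated LNA2 library of replicate 3, at 50.9 CPM against 39.3 CPM in its partner, and without that library, or without the stimulated ctrlA library of replicate 4, Zfp423 was called with the block, beside 29.8% and 23% of all genes in the same order.

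The receptor pair PPARG and RXRA, which binds the enhancers of lipid storage genes, showed no call with isoproterenol. In ctrlA cells Pparg was at 199, 144 and 138 CPM unstimulated and at 205, 142 and 149 CPM with isoproterenol (replicates 2, 3 and 4 in this order). With LNA1 the values were 201, 139 and 139 CPM unstimulated and 204, 127 and 139 CPM stimulated. With LNA2 they were 184, 129 and 117 CPM and 183, 116 and 126 CPM. Stimulated and unstimulated libraries of Pparg lay within the same range, with 4 of 9 pairs higher and 5 lower. Its log2 fold change was -0.00 ± 0.149 without and -0.00 ± 0.037 with the block (adjusted p = 0.948). Rxra ranged from 110.4 to 237 CPM and had 0.08 ± 0.154 (adjusted p = 0.926, and 0.398 with the block), with 6 of 9 pairs higher. Across the 10 genes, 3 were higher in all 9 pairs, beside 8.4% of all tested genes, and 2 were lower in all 9, beside 6.91%.

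**Figure D2:**
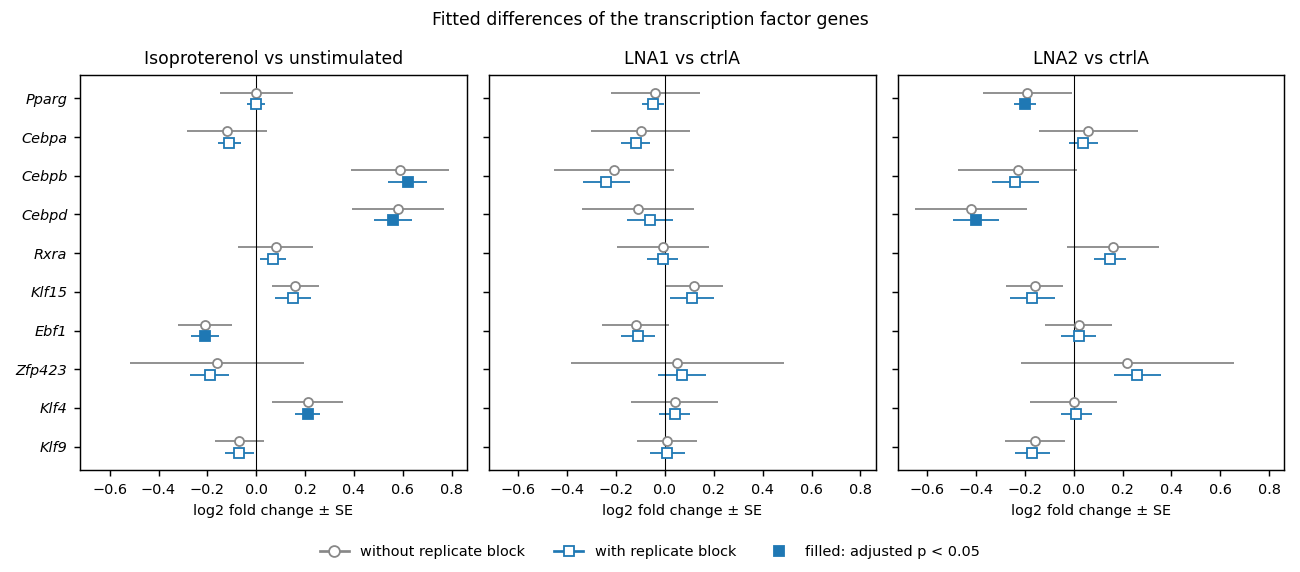
Fitted log2 fold change ± SE (horizontal axis) of each transcription factor gene for isoproterenol against unstimulated (9 libraries against 9) and for LNA1 and LNA2 against ctrlA (6 against 6), without (circles) and with (squares) the replicate block. Filled symbols have an adjusted p below 0.05, which without the block none reached, and the estimates themselves barely move with the block while the SE shrinks.

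**Figure D3:**
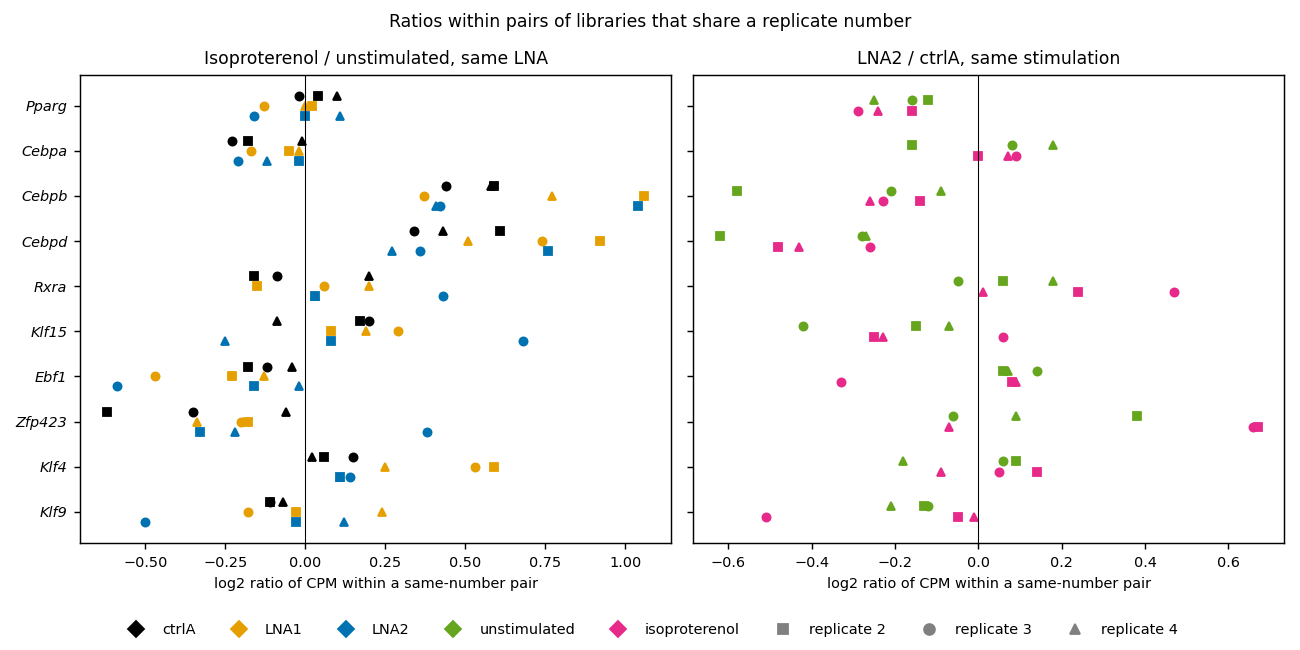
Log2 ratio of CPM within pairs of libraries that share a replicate number, for isoproterenol over unstimulated cells of the same LNA (left, 9 pairs, coloured by LNA) and for LNA2 over ctrlA at the same stimulation (right, 6 pairs, coloured by stimulation), with a marker shape for each replicate number. Cebpb, Cebpd and Klf4 lie right of 0 in all 9 isoproterenol pairs, and Pparg, Cebpb, Cebpd and Klf9 lie left of 0 in all 6 LNA2 pairs. The nearest Klf9 pair is at -0.01.

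LNA1 and LNA2 were each compared with ctrlA over both stimulation states, 6 libraries against 6, and these comparisons share the ctrlA libraries. For LNA1, 0 of the 10 genes were called by edgeR, beside 0.475% of all genes, 0 had an unadjusted p below 0.05 (6.01% of all genes) and DESeq2 called 0 (1.26% of all genes). With the block it was again 0, beside 7.8% of all genes, with 2 at an unadjusted p below 0.05 (22.2% of all genes). These were Cebpb at a log2 fold change of -0.24 ± 0.096 (adjusted p = 0.147) and Cebpa at -0.12 ± 0.058 (adjusted p = 0.223). Without the unstimulated LNA1 library of replicate 3, Cebpb was called with the block, 1 of 10 beside 5.32% of all genes.

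For LNA2, 0 of the 10 genes were called without the block, beside 1.59% of all genes, with 0 at an unadjusted p below 0.05 (10.6% of all genes) and 0 called by DESeq2 (3.5% of all genes). With the block Pparg and Cebpd fell, 2 of the 10 beside 20.6% of all genes, where DESeq2 called 3 beside 21%. Pparg had a log2 fold change of -0.19 ± 0.182 (adjusted p = 0.886) and of -0.20 ± 0.045 with the block (adjusted p = 0.00487), or 0.87 of the ctrlA level. Each LNA2 library was below the ctrlA library of its stimulation and number, with log2 ratios of -0.29 to -0.12. Cebpd had -0.42 ± 0.229 (adjusted p = 0.591) and -0.40 ± 0.095 with the block (adjusted p = 0.00737), and was lower in 6 of 6 pairs, with log2 ratios of -0.62 to -0.26. Its widest gap was between the unstimulated libraries of replicate 2. When 1 library was left out, the log2 fold change of Cebpd lay between -0.60 and -0.20, and that of Pparg between -0.30 and -0.10. The ranges with the block were -0.46 to -0.30 for Cebpd and -0.22 to -0.18 for Pparg. With the block Cebpd thus rose with isoproterenol and fell with LNA2, whereas Pparg fell with LNA2 and did not differ detectably with isoproterenol.

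Without replicate 2, 0 of the 10 genes were called for LNA2, beside 8.97% of all genes. The log2 fold changes were then -0.20 for Pparg (adjusted p = 0.0996) and -0.28 for Cebpd (adjusted p = 0.0579). With the block in addition, Cebpd was called at 0.0418 and Pparg was not (0.0785), 1 of 10 beside 11.9% of all genes. Cebpb and Klf9 were also lower with LNA2 in 6 of 6 pairs, so that 4 of the 10 genes were lower in every pair beside 12.1% of all genes. The Klf9 log2 ratios ran from -0.51 to -0.01, the last at 153.8 against 155.3 CPM in the stimulated libraries of replicate 4. The log2 fold changes of Cebpb and Klf9 with the block were -0.24 ± 0.096 (adjusted p = 0.0854) and -0.17 ± 0.072 (adjusted p = 0.116). Zfp423 (0.26 ± 0.097, adjusted p = 0.0674) and Rxra (0.15 ± 0.065, adjusted p = 0.104) had positive values that were not called. Without the stimulated LNA2 library of replicate 4, Rxra, Zfp423 and Klf9 were called as well, 5 of 10 beside 24.3% of all genes in that fit. Zfp423 was also called without the unstimulated LNA2 library of replicate 3 (19.3% of all genes) or the stimulated ctrlA library of replicate 4 (16.3%), and Cebpb without the unstimulated LNA1 library of replicate 3 (19% of all genes). Cebpa, Ebf1, Klf4 and Klf15 had log2 fold changes of 0.06, 0.02, -0.00 and -0.16 without the block. Klf15 was lower with LNA2 in 5 of 6 pairs. With the block on all libraries, 6 of the 10 had an unadjusted p below 0.05 for LNA2, beside 34.4% of all genes.

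LNA2 was compared with LNA1 directly, since both target the same transcript. Without the block 0 of the 10 genes were called, beside 0.97% of all genes, with 1, Klf15, at an unadjusted p below 0.05 (9.2% of all genes) and 0 called by DESeq2 (2.26% of all genes). With the block Pparg (-0.15 ± 0.045, adjusted p = 0.0311) and Cebpd (-0.34 ± 0.097, adjusted p = 0.0282) were lower with LNA2, 2 of 10 beside 15.4% of all genes, where DESeq2 called 3 beside 15.5%. Cebpd was the 1 gene called without replicate 2, at -0.44 (adjusted p = 0.0128) beside 5.08% of all genes and at -0.44 with the block (adjusted p = 0.00993) beside 7.2%. Pparg, Cebpd, Klf15 and Klf9 were lower in all 6 same-number pairs, 4 of 10 beside 10.9% of all genes, and Cebpa and Ebf1 were higher in all 6, 2 of 10 beside 11.4%, where Ebf1 in the unstimulated pair of replicate 2 had a log2 ratio of 0.00, at 92.3 CPM in both libraries. For Klf15 the log2 ratios were -0.59 to -0.12, with a log2 fold change of -0.28 ± 0.092 and an adjusted p of 0.0511 with the block. The calls changed with single libraries, as Pparg lost its call in 7 and Cebpd in 5 of the 18 fits with the block that left out 1 library. Without the unstimulated LNA2 library of replicate 2 or the unstimulated LNA1 library of replicate 4, 0 of 10 were called, beside 13.6% and 12% of all genes. Without the stimulated LNA2 library of replicate 3 it was 5 of 10, with Cebpa, Klf15 and Ebf1 added, beside 14.9%, and without that of replicate 4 it was 4 of 10, Pparg, Rxra, Klf9 and Zfp423, beside 19.2%.

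Whether the response to isoproterenol depended on the LNA was tested by the interaction terms. For both LNA1 and LNA2, 0 of the 10 genes were called, and 0.0% of all genes, without and with the block. Without the block 105 and 116 of all genes, and 0 of the 10, had an unadjusted p below 0.05. DESeq2 called 0 and 2 of all genes, and 4 and 2 with the block, with 0 of the 10 in each case. Klf4 had the highest interaction value with LNA1, 0.36 ± 0.357 without and 0.38 ± 0.128 with the block (unadjusted p = 0.00973, adjusted p = 1.0). It was the 1 gene of the 10 with an unadjusted p below 0.05 with the block, beside 2.63% of all genes. Its pair ratios were higher with LNA1 than with ctrlA for each number. For LNA2 with the block, 0 of the 10 had an unadjusted p below 0.05, beside 5.4% of all genes.

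Other genes of the same pathway were read in the same way. Of 33 further adipogenic regulators, 30 were tested and 0 were called with isoproterenol, beside 4.58% of all genes. Their median log2 fold change was -0.03, against -0.002 for all genes. With the block 4 rose (Ppara, Rxrb, Gata2 and Egr2), 5 fell (Ddit3, Klf6, Ebf2, Srebf1 and Tcf7l2) and 21 did not pass, so that 9 of 30 were called beside 26.4% of all genes. Ebf2, a factor of brown adipocyte identity, fell from a mean of 34.1 to 24.0 CPM (-0.53 on the log2 scale, adjusted p = 6.45e-05 with and 0.0620 without the block), next to its relative Ebf1. Klf6 (-0.49, 1.94e-05) fell with the block. Gata2 (0.65, 0.0194), which restrains adipogenesis, and Egr2 (0.55, 0.00187), which acts on Cebpb together with KLF4, rose with it. Without the block the adjusted p-values of Klf6, Gata2 and Egr2 were 0.112, 0.108 and 0.152. Gata2 was low, at means of 1.16 CPM unstimulated and 1.82 CPM stimulated, and Egr2 was at 4.18 and 6.05 CPM. With LNA1, 0 of 30 were called in either fit, beside 0.475% of all genes without and 7.8% with the block, where Ebf3, Ddit3, Klf2 and Med1 had log2 fold changes of -0.30, -0.21, 0.31 and 0.10 without the block.

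With LNA2, 1 of the 30 regulators was called without the block, beside 1.59% of all genes. This was Ebf3, which fell from a mean of 17.2 CPM in ctrlA to 9.72 CPM (-0.83, adjusted p = 0.0227). With the block 1 rose (Tle3) and 7 fell (Klf6, Ebf2, Ebf3, Nr3c1, Stat5b, Snai2 and Nr2f2), 8 of 30 beside 20.6% of all genes. Stat5b, a transducer of growth hormone signals, was at -0.64 (adjusted p = 8.85e-05), Ebf2 at -0.44 (0.00337) and Nr3c1, the glucocorticoid receptor, at -0.31 (0.0117). The median of the 30 was -0.11 and that of all genes -0.018.

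Genes bound and activated by PPARG and C/EBPA in adipocytes split in their response to isoproterenol. Of 28, 26 were tested, 5 rose and 3 fell without the block, and 6 rose and 17 fell with it, with a median of -0.25 in both fits. All genes were called at 4.58% without and 26.4% with the block. Those that rose without the block were the thermogenic gene Ucp1 at a log2 fold change of 3.51 (adjusted p = 1.12e-08), Cidea, a lipid droplet protein of brown fat, at 1.27 (adjusted p = 0.00110), Pdk4, the kinase that spares glucose, at 0.65 (adjusted p = 0.00303), Pck1, the glyceroneogenic enzyme, at 1.29 (adjusted p = 0.00683), and Gk, glycerol kinase, at 0.56 (adjusted p = 0.0212). Those that fell were Adipoq, which encodes adiponectin, at -0.71 (adjusted p = 0.00730), the lipid droplet gene Cidec at -0.39 (adjusted p = 0.0117) and the adipokine gene Cfd at -0.83 (adjusted p = 0.0194). Pparg and Rxra were not called in the same comparison, as given above. All 7 mature adipocyte markers are also in this target list, so that their sum is not a separate measure. It had a lower median in stimulated than in unstimulated cells of every LNA, with ranges that overlapped for LNA1 and LNA2, and their part in the levels of the transcription factors was not tested.

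With LNA1 0 of the 26 targets were called, beside 0.475% of all genes. With the block Aqp7 rose and Plin1 and Pck1 fell, 3 of 26 beside 7.8% of all genes. The smallest p-values without the block were those of Gk at -0.31 (adjusted p = 0.933), Pdk4 at -0.26 (adjusted p = 0.962), Ucp1 at -0.35 (adjusted p = 0.983) and Cidec at -0.18 (adjusted p = 0.985). With LNA2 0 were called without the block, beside 1.59% of all genes. With it Retn and Cfd rose and Fabp4, Cd36, Cidec, Slc2a4, Pck1, Angptl4, Gk and Pex11a fell, 10 of 26 beside 20.6% of all genes. The resistin gene Retn was at 0.55 (adjusted p = 9.02e-05) and Cfd at 0.45 (adjusted p = 0.00235). Among those that fell, Pck1 was at -0.37 (adjusted p = 0.00158), Pex11a, a peroxisomal PPAR target, at -0.21 (adjusted p = 0.00447), Angptl4, an inhibitor of lipoprotein lipase, at -0.21 (adjusted p = 0.00415), Cidec at -0.21 (adjusted p = 0.0208) and Gk at -0.37 (adjusted p = 0.0308). The median of the 26 was -0.09 with the block, beside -0.016 for all genes.

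Since Cebpd and Klf9 are known to respond to glucocorticoids, 12 genes activated by the glucocorticoid receptor were examined as well, of which 11 were tested. With isoproterenol 0 were called without the block, beside 4.58% of all genes, at a median of 0.23. With the block 7 rose (Per1, Sgk1, Mt1, Mt2, Ddit4, Errfi1 and Nfkbia) and Fkbp5 fell, 8 of 11 beside 26.4% of all genes. Fkbp5, a chaperone of the receptor and a common readout of its activity, was at -0.43 (adjusted p = 8.64e-06), Mt1, a metallothionein, at 0.51 (adjusted p = 1.95e-04) and Ddit4 at 0.30 (adjusted p = 0.00575), and Dusp1 was at 0.14 (adjusted p = 0.109). With LNA1 1 of 11, Mt2, was called with the block beside 7.8% of all genes, at 0.45 (adjusted p = 0.00274), and Mt1, Dusp1 and Zbtb16 were at 0.31, 0.18 and 0.13 without a call. With LNA2 Dusp1 rose and Fkbp5, Errfi1 and Nfkbia fell with the block, 4 of 11 beside 20.6% of all genes, Errfi1, a feedback inhibitor of EGF receptor signals, at -0.44 (adjusted p = 8.14e-05) and Fkbp5 at -0.28 (adjusted p = 0.00466). Tsc22d3, an anti-inflammatory target of the receptor, was at -0.15 (adjusted p = 0.0596). Neither LNA1 nor LNA2 gave a call in this list without the block, beside 0.475% and 1.59% of all genes.

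**Figure D4:**
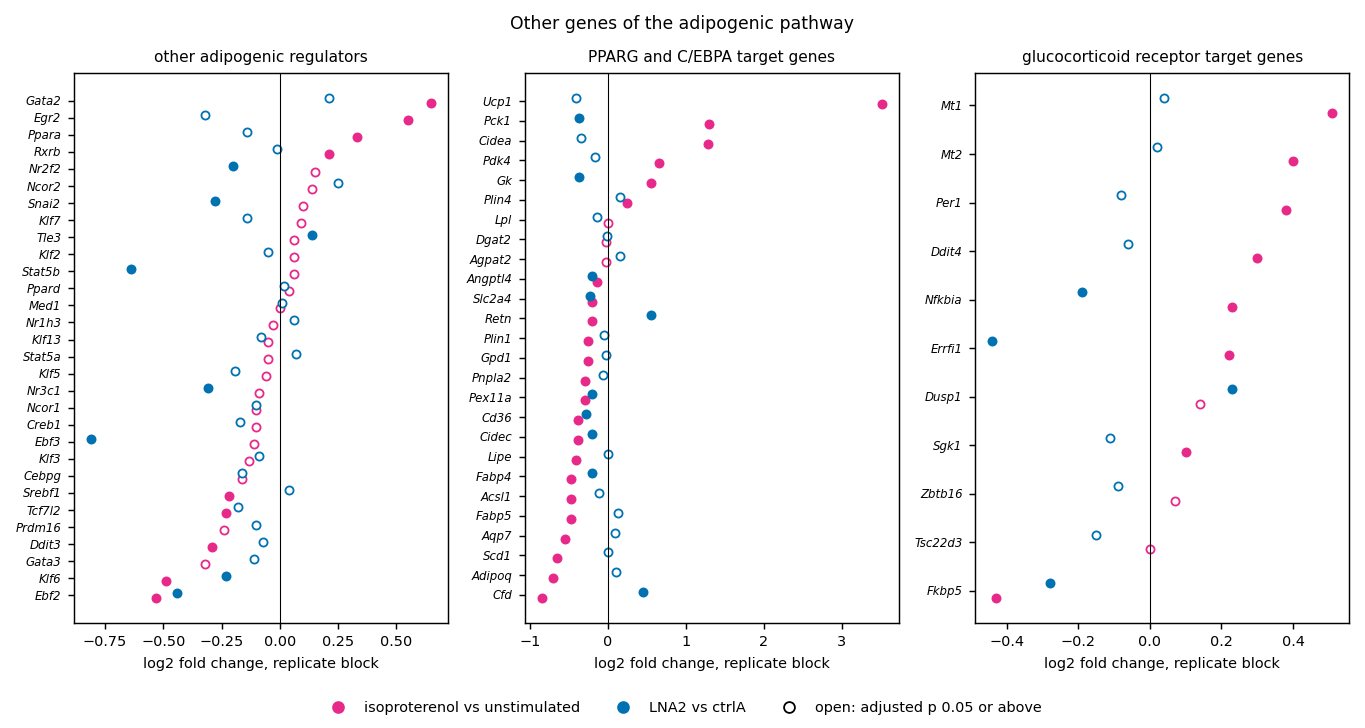
Log2 fold change with the replicate block (horizontal axis) for the tested genes of each pathway list, with isoproterenol against unstimulated in pink and LNA2 against ctrlA in blue. Filled points have an adjusted p below 0.05, and most PPARG and C/EBPA targets lie left of 0 for isoproterenol, with Ucp1 far to the right at 3.51.

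Markers of brown adipocytes and of other cells were examined beside these results. The 6 brown adipocyte markers summed in stimulated ctrlA cells to 495 to 547 CPM, in stimulated LNA1 cells to 354 to 444 CPM and in stimulated LNA2 cells to 354 to 421 CPM. The unstimulated sums were 338 to 426, 255 to 350.2 and 262 to 377 CPM in the same order. Elovl3 held the largest part of these sums, at means of 345 CPM in ctrlA, 257 CPM in LNA1 and 266 CPM in LNA2. Next was Ppargc1a, at 71.4, 66.4 and 57.1 CPM in the same order. None of the 5 tested brown adipocyte markers was called with LNA1 or LNA2 without the block, beside 0.475% and 1.59% of all genes. With the block Elovl3, an elongase of brown fat, fell with LNA1 (-0.44), 1 of 5 beside 7.8% of all genes, and with LNA2 Elovl3 and Ppargc1a fell (-0.38 and -0.31), 2 of 5 beside 20.6%. The summed level of 12 preadipocyte or fibroblast markers was 1184.5 to 1609 CPM in unstimulated and 1117 to 1699 CPM in stimulated libraries, where 1 of the 8 tested was called without the block, beside 4.58% of all genes, Ly6a, at 1.58 (adjusted p = 0.0415). Vim held the largest part of this sum, at means of 906 CPM unstimulated and 894 CPM stimulated. Pdgfra, the receptor that marks adipocyte progenitors, rose with LNA1, by 0.89 (adjusted p = 0.00743) on the log2 scale, and with LNA2, by 0.71 (adjusted p = 0.0121). The list went both ways with the block. With isoproterenol Ly6a, Col1a1 (0.31) and Col3a1 (0.22) rose and Pdgfrb (-0.34) and Postn (-0.61) fell, 5 of 8 beside 26.4% of all genes. With LNA1 Pdgfra rose and Postn fell (-0.52), 2 of 8 beside 7.8%. With LNA2 Pdgfra, Pdgfrb (0.22) and Ly6a (0.66) rose and Col3a1 (-0.62) and Postn (-0.79) fell, 5 of 8 beside 20.6%. Lum had a count in 4 of the 18 libraries, with at most 2 counts in any. It was not tested, nor were Dlk1, Thy1 and Dcn, which were also low. The 6 macrophage markers summed to 10.3 to 30.6 CPM unstimulated and 14.5 to 48.8 CPM stimulated, with Adgre1 at 0 in both ctrlA groups and both LNA2 groups. Of these, 3 were tested (Cd68, Cd14 and Csf1r), while Adgre1, Ptprc and C1qa had at most 3 counts in any library. With isoproterenol 2 of the 3 rose, beside 4.58% of all genes, Cd68 at 0.90 (adjusted p = 0.00618) and Cd14 at 1.28 (adjusted p = 0.00398). Without the block 0 were called with LNA1 or LNA2, beside 0.475% and 1.59% of all genes. With the block all 3 rose with LNA2, beside 20.6% of all genes. The low Csf1r went from means of 0.379 CPM in ctrlA to 1.23 CPM in LNA2. Cd68 also rose with LNA1 with the block, by 0.42 (adjusted p = 0.0408) on the log2 scale, 1 of 3 beside 7.8%. The endothelial and skeletal muscle markers summed to at most 4.61 and 5.58 CPM, and Myf5 had no count in any library. Of the muscle markers, Acta1 rose with isoproterenol with the block (0.68, adjusted p = 0.00211), beside 26.4% of all genes, and Mylpf did not pass. The part of these markers in the values of the transcription factors was not tested.

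For the 5 genes called with the block, the tested genes with the most similar profile over the 6 group means were sought, as the smallest root mean square difference on the centred log2 scale. Cebpb was nearest to Pdk4, the PPARG target named above, with a difference of 0.0444, and then to Olfr1388 (0.0663), against a spread of 0.339 of Cebpb itself. Cebpd was nearest to Gm38312 (0.0383) and Casp12 (0.0555), with a spread of its own of 0.329. Pparg was nearest to Cpsf6 (0.00951) and Abcd3 (0.0139), Ebf1 to B230354K17Rik (0.0252) and Kbtbd7 (0.027), and Klf4 to Crocc (0.0397) and Yy1 (0.0402). The spreads of these 3 genes were 0.0881, 0.128 and 0.138.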

How the data were processed

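RNA was sequenced from 18 libraries of wt1-SAM brown adipocytes. The deposited values are expected counts per gene, which the authors obtained by trimming reads with cutadapt and quantifying them with salmon against Gencode M22 (GRCm38), and which held 0 values other than whole numbers. Versions and the use of strand are not given in the sources used here. salmon divides reads shared by similar transcripts by probability.

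Library totals ranged from 9167560 to 19723021. Counts were analysed in edgeR 4.0.16 (R 4.3.3) with filterByExpr (minimum count 10, minimum total 15), which left 14949 genes, TMM normalisation and a quasi-likelihood model with 1 term per group. A gene was called at a Benjamini-Hochberg adjusted p below 0.05 over all genes tested, two-sided, with no limit on the fold change. SEs come from the F statistic. CPM are counts scaled to the TMM-normalised library size. Library pairs within a group differed, with a chi-square per degree of freedom of 4.32 to 177 over 18 pairs, so that no pair appeared to be the same library, and whether the spread is technical is not known. The SEs, like the p-values, measure the spread between these libraries.

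The replicate number was fitted as a block as an alternative. It treats libraries with the same number as paired. Deviations from the group means correlated at 0.24 to 0.722 (median 0.432) in the 45 same-number pairs. In 90 pairs with different numbers and groups they correlated at -0.596 to 0.404, so that the ranges overlapped. What the number marks is not stated. Other alternatives were DESeq2 1.42.0, its size factors, no filter, a log2 fold limit of 0.5, ribosomal and mitochondrial genes left out, replicate 2 left out and each library left out. The block without replicate 2, DESeq2 with the block, the fold limit with the block, and leaving out each library with the block were chosen after seeing the data.

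The members and lists were chosen with earlier results of these data known. Named are all members, the 4 list genes with the smallest p in the isoproterenol and both LNA comparisons, and the 2 genes nearest in profile to members called. As no member was called without the block, block calls were used for the last. Other list and marker genes were named after their values were seen. They were named for a call or the lack of one, for few or absent counts, or for their share of a sum. Not every called list gene is named. Coordinates and exons come from GENCODE M21 (99.53% of listed genes), and promoters from RefSeq. Python 3.11.15, pandas 2.3.3 and matplotlib 3.10.9 were used.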

Additional observations from a re-analysis of the deposited data

How the results depend on the processing

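The replicate block set most of the calls. Without it 0 of the 10 genes were called in any comparison. For isoproterenol, LNA1, LNA2 and LNA2 against LNA1, the calls over all genes were then 4.58%, 0.475%, 1.59% and 0.97%. With the block 4 were called for isoproterenol (26.4% of all genes), 2 for LNA2 (20.6%) and 2 for LNA2 against LNA1 (15.4%). DESeq2 called 1 for isoproterenol without the block (7.12% of all genes) and 4, 3 and 3 with it (25.6%, 21% and 15.5% of all genes), adding Zfp423 for LNA2 and Klf15 for LNA2 against LNA1. Leaving out replicate 2 gave 2 for isoproterenol (10.9% of all genes), 0 for LNA2 (8.97%) and 1 for LNA2 against LNA1 (5.08%). With the block in addition it gave 2, 1 and 1 (13.1%, 11.9% and 7.2%). A log2 fold limit of 0.5 under the block left 2, 0 and 0 (7%, 5.53% and 4.11% of all genes). DESeq2 size factors, no filter, and leaving out ribosomal and mitochondrial genes left every count at 0 without the block. Leaving out each library gave 0 to 1 for isoproterenol (3.25% to 4.17% of all genes) and 0 otherwise without the block. With the block it gave 4 to 5 for isoproterenol (21.7% to 29.8% of all genes), 0 to 1 for LNA1 (4.28% to 15%), 2 to 5 for LNA2 (13.6% to 24.3%) and 0 to 5 for LNA2 against LNA1 (8.84% to 19.2%). In these 18 fits Cebpb, Cebpd, Klf4 and Ebf1 were each called for isoproterenol, and Pparg and Cebpd for LNA2, while Pparg lost its call against LNA1 in 7 and Cebpd in 5. No value called with the block on all 18 libraries changed sign. Zfp423 for LNA2 against LNA1, called with the block without the stimulated LNA2 library of replicate 4, did change sign. Of the 40 values without the block, 14, at most 0.17 in size and none called on all 18 libraries, changed sign in at least 1 alternative. Apart from single libraries, these were Pparg for isoproterenol (0.01 with DESeq2 size factors, with DESeq2 and without ribosomal and mitochondrial genes, 0.00 without the filter and with DESeq2 and the block), Cebpa (0.01), Cebpd (0.16) and Rxra (0.03) for LNA1 without replicate 2, with and without the block, Klf9 for LNA1 (-0.02) and Cebpb for LNA2 against LNA1 (0.00) without the filter, and Klf4 for LNA2 (0.01 with the block and without ribosomal and mitochondrial genes, 0.00 with DESeq2 and the block). Others changed sign when a single library was left out. For isoproterenol the range was Pparg -0.07 to 0.08. For LNA1 the range was Pparg -0.15 to 0.06, Cebpa -0.20 to 0.02, Cebpd -0.22 to 0.11, Rxra -0.09 to 0.11, Zfp423 -0.14 to 0.24, Klf4 -0.07 to 0.15 and Klf9 -0.07 to 0.08. For LNA2 the range was Cebpa -0.02 to 0.18, Ebf1 -0.07 to 0.10 and Klf4 -0.07 to 0.11. For LNA2 against LNA1 the range was Cebpb -0.15 to 0.14, Zfp423 -0.04 to 0.35 and Klf4 -0.13 to 0.07. The cause was not tested. The lowest members, Klf4 and Zfp423, rest on 119 to 277 and 120 to 648 counts per library.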
